A study of Mus musculus with 15 samples.

Results

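The cadherin superfamily is a large set of membrane proteins that hold cells together and mark the boundaries between them. In the sorted kidney cells described here its members were taken as the genes whose single symbol reads Cdh or Pcdh followed by a number, Fat1 to Fat4, Dchs1, or Celsr1 to Celsr3, and the clustered protocadherins were left out. There were 42 such members among 19938 genes. One probe set stood for each gene, the one with the highest mean over the arrays. Dchs2 was not analysed here.

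The cells came from newborn CD-1 mice that carried the Crym-EGFP transgene, a bacterial artificial chromosome in which regulatory sequence of Crym drives a green fluorescent protein. After fostering of the pups to CD-1 mothers, green kidney cells were sorted after trypsin treatment at P0, P1, P2, P3 and P4, which are postnatal days 0 to 4. All 15 samples carried the transgene. Every day had 3 samples, and a sample pooled about 4 kidneys, whose RNA was amplified and put on its own array. Cap mesenchyme, meaning the nephron progenitors around the ureteric bud tips, is the label of the 12 samples from P0 to P3. Renal vesicle, the epithelial vesicle into which progenitors condense, is the label of the 3 samples from P4. Age and label change together at P4 and cannot be told apart. How the sort gate told both populations apart is not stated in the labels used here. Whether pools of one day stem from different litters is not labelled, so p-values measure only the spread between these pools, which may be technical.

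Classical cadherins bind the same or a related cadherin on the neighbouring cell and are tied to the actin skeleton by catenins. E-cadherin, the product of Cdh1, is the usual adhesion molecule of epithelia, while mesenchymal cells more often carry N-cadherin (Cdh2) or cadherin 11 (Cdh11). Fat and Dachsous proteins are very large cadherins that bind one another and, like the Celsr proteins, act in planar cell polarity, and the protocadherins outside the gene clusters are known mostly for the sorting of cells and neurites.

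The labels were checked against markers, in lists chosen with earlier results of these data known. Against the mean of the earlier days, 8 of 9 cap mesenchyme markers were lower at P4 and 7 of 9 renal vesicle markers higher. Over all genes tested, limma called 2.32% lower and 3.41% higher. Part of this shift was present before P4. Over P0 to P3, 5 of the cap mesenchyme markers already had a falling slope (Six2, Cited1, Crym, Meox1 and Gdnf). A rising slope was called for 6 of the renal vesicle markers (Lhx1, Jag1, Wnt4, Emx2, Bmp2 and Ccnd1). Of all genes tested, 1.48% had a falling and 1.65% a rising slope. Emx2 had day means of 5.56 to 5.97 from P0 to P2, below the filter level of log2 6.86 given below. At P3 and P4 they were 7.28 and 8.46, so it entered the test mainly through days on which it is high. From P3 to P4, 5 cap mesenchyme markers fell and 0 renal vesicle markers were called higher in limma (3 at an unadjusted p under 0.05, and 1 called once the array set was blocked). Crym itself read 10.24 to 12.15 in the 12 cap mesenchyme arrays and 7.68 to 7.98 in the 3 P4 arrays. The array numbered first on each day differed from the other 10 arrays (the split is called the array set), with interquartile ranges of 2.14 to 2.27 against 2.52 to 2.77. Where a block for this split, or a fit on replicates 2 and 3 only, changes a call, that value stands beside the result. Values of the first replicates alone rest on 1 array a day and carry no test. In such bulk samples, fewer cells of a type and less RNA per cell cannot be told apart.

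Levels below are the deposited log2 values, and differences are on the same log2 scale. Of the 42 members, 19 passed a filter, a value over log2 6.86 (the median of the whole table) in 3 or more arrays, and were tested. The cap mesenchyme mean is the average of the 4 day means before P4. At a limma adjusted p under 0.05 over all genes tested, 9 of the 19 differed from it at P4. Of these, 7 were higher (Cdh1, Cdh3, Cdh6, Cdh16, Pcdh7, Pcdh17 and Pcdh19) and 2 lower (Cdh11 and Fat3). Pcdh19 passed the filter only in the 6 arrays of P3 and P4, in which it is high. Its calls, here and in the slope below, are therefore no support, and its P4 mean (7.34) lay below that of P3 (7.59). Over all 11885 genes tested the share called was 5.73% (3.41% higher and 2.32% lower). Without the filter the same count of 9 was called of 42, against 3.48% of all genes. The median difference over the 42 members was 0.01, beside 0.00 over all genes, and the median size of the difference was 0.12 beside 0.09. The 9 called members came from type I classical (Cdh1 and Cdh3), type II classical (Cdh6 and Cdh11) and atypical cadherins (Cdh16), from the Fat group and from protocadherins. In 7 of the 19 tested members the P4 arrays had no overlap with the 12 earlier ones, against 3.78% of all genes. An F test for any difference among the 5 days called the same 9 members, with 5.37% of all genes called. It called 13 with the array set or the replicate number blocked, with Cdh2, Cdh4, Celsr1 and Celsr2 in addition (11.7% and 12.5% of all genes). Within replicates 2 and 3 it called 10, with Cdh2 and Cdh4 in addition and without Pcdh17 (5.41%).

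The called members moved on different timetables. Cdh1, Cdh3, Cdh16 and Cdh11 stayed near their P0 level through P2 and changed mainly between P3 and P4. Cdh6, Pcdh7, Pcdh19 and Fat3 changed from P0 to P3, within the days labelled cap mesenchyme. Over the same days Lhx1 rose by 0.92 per day (limma adjusted p = 0.00185), Jag1 by 0.81 (1.9e-04) and Bmp2 by 0.96 (7.8e-06), while Six2 had a slope of -0.40 (0.00266) and Cited1 of -0.69 (0.0195). The part of this marker shift in the slopes of the cadherins was not tested. Set against P3 alone, 4 members passed at P4, with 3 higher and 1 lower, where 1.49% of all genes were called (1.04% higher and 0.446% lower). The slope over P0 to P3 called 4 members, again 3 higher and 1 lower, where 3.13% of all genes were called (1.65% higher and 1.48% lower), and no member was called in both. With the array set blocked, 7 members passed against P3 (Cdh6, Fat3 and Pcdh7 in addition, 3.35% of all genes), and with the replicate number blocked 8 (also Pcdh17, 3.55%). The blocked slope called 5 (also Cdh4, 7.72%). With the array set blocked, Cdh6, Fat3 and Pcdh7 were thus called both in the slope and against P3. All comparisons with P4 share the same 3 P4 arrays, so their values are given side by side.

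**Figure D1:**
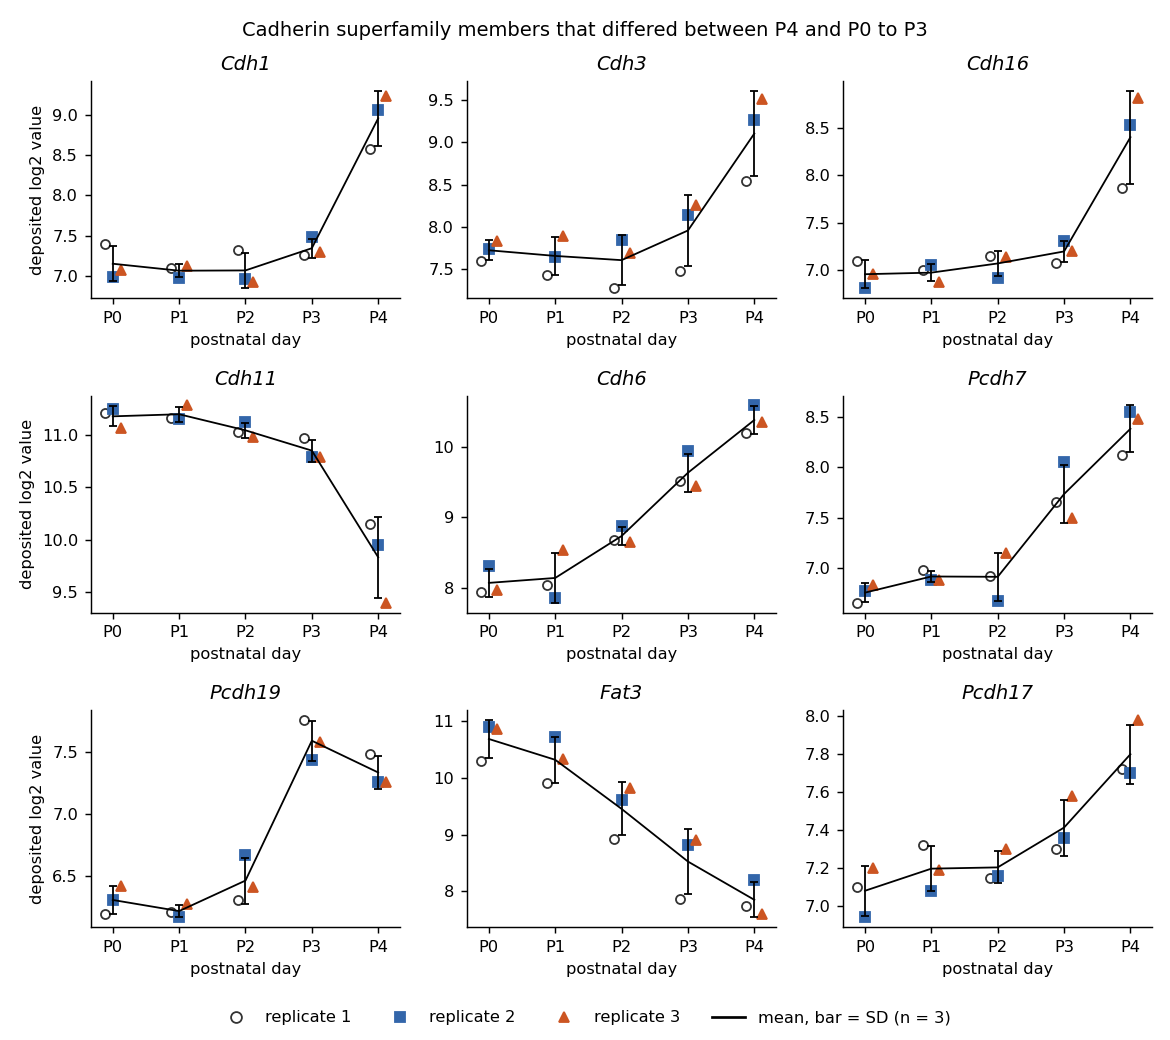
Deposited log2 value (vertical) of the 9 members that differed between P4 and P0 to P3, by postnatal day (horizontal). Symbols are the 3 arrays of a day by replicate number and the line joins day means with SD bars; Cdh1, Cdh3, Cdh16 and Cdh11 run almost flat to P2 and turn at P4, while Cdh6 and Fat3 move from P2 on and Pcdh19 is highest at P3.

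Cdh1 had the largest rise at P4 over the cap mesenchyme mean among the members, with Cdh6 close behind. From P0 to P4 Cdh6 rose more (2.32 against 1.81). Cdh1 read 7.40, 6.98 and 7.07 in the 3 arrays of P0, 7.10, 6.97 and 7.12 at P1, 7.32, 6.96 and 6.92 at P2, and 7.26, 7.48 and 7.29 at P3. At P4 the 3 arrays read 8.58, 9.06 and 9.24. All 3 P4 arrays lay above all 12 earlier ones, which lay between 6.92 and 7.48. The difference from the cap mesenchyme mean was 1.80 (SE 0.14), a 3.49-fold rise with an adjusted p of 1.9e-06. From P3 to P4 alone Cdh1 rose by 1.61 (SE 0.17, adjusted p = 2.2e-04), and its slope over P0 to P3 was 0.06 per day with a 95% confidence interval of -0.06 to 0.18. On the first replicates alone the P4 difference was 1.31, and within replicates 2 and 3 it was 2.05.

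Cdh3, the gene of P-cadherin, a classical cadherin of many embryonic epithelia, rose 2.58-fold. It read 7.60, 7.74 and 7.84 at P0, 7.44, 7.65 and 7.89 at P1, 7.28, 7.85 and 7.70 at P2, 7.48, 8.14 and 8.26 at P3, and 8.54, 9.26 and 9.51 at P4. The P4 arrays were again above all others, and on every day the first replicate was the lowest. The difference from the cap mesenchyme mean was 1.37 (SE 0.20, adjusted p = 4.8e-04). The step from P3 was 1.15 (SE 0.25, adjusted p = 0.0340). That last call was lost in 8 of 15 fits that each left out a single array (replicates 2 and 3 of P4, 1 and 2 of P3, 3 of P2, 2 of P1, and 2 and 3 of P0), with an adjusted p of up to 0.205, whereas when the array set was blocked it was 1.8e-04.

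Cdh16 encodes kidney-specific cadherin, an atypical cadherin with a short cytoplasmic tail found on tubule cells. It read 7.10, 6.81 and 6.96 at P0, 7.0, 7.05 and 6.87 at P1, 7.15, 6.92 and 7.14 at P2, 7.08, 7.31 and 7.20 at P3, and 7.86, 8.53 and 8.81 at P4. Its earlier values lay close to the filter level, which 14 of 15 arrays passed, and the P4 arrays stood above all of them. The rise was 2.54-fold (log2 1.35, SE 0.15, adjusted p = 4.1e-05), and 1.20 (SE 0.19, adjusted p = 0.00352) from P3 alone. Within replicates 2 and 3 the P4 difference was 1.63, and on the first replicates 0.77.

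Cdh11 was the member that fell late. Cadherin 11 is a type II classical cadherin of mesenchymal cells. Its values were 11.21, 11.25 and 11.07 at P0, 11.16, 11.15 and 11.28 at P1, 11.03, 11.12 and 10.98 at P2, 10.97, 10.79 and 10.79 at P3, and 10.15, 9.95 and 9.40 at P4. All 3 P4 arrays lay below all 12 others, and the P3 arrays were in turn the lowest of the cap mesenchyme days. Cdh11 fell by 1.23 (SE 0.12), 2.35-fold, against the cap mesenchyme mean (adjusted p = 1.8e-05) and by 1.02 (SE 0.16, adjusted p = 0.00337) from P3. Its slope before P4 was -0.11 per day (95% confidence interval -0.22 to -0.01, adjusted p = 0.351) and was not called.

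To ask whether P4 lay off the course of the earlier days, P4 was compared with the value at day 4 of the straight line through the P0 to P3 means. Cdh1 lay 1.65 above its line (SE 0.19, adjusted p = 7.1e-04), Cdh16 1.14 above (SE 0.21, adjusted p = 0.0148) and Cdh11 at -0.95 (SE 0.18, adjusted p = 0.0148). These were the 3 members called, where 1.04% of all genes were. Without P3 replicate 1 the calls of Cdh11 and Cdh16 were lost, and that of Cdh16 was also lost without P4 replicate 2 or P4 replicate 3 (adjusted p up to 0.0682). Cdh3 lay 1.21 above its line (adjusted p = 0.0616) and was called when the array set was blocked (4.2e-04), where 2.64% of all genes were called. For Fat3 the gap to the line was -0.06 (95% confidence interval -0.80 to 0.67) and for Cdh6 0.42 (-0.03 to 0.86).

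Cdh6 was the member with the steepest rise before P4. Cadherin 6, also called K-cadherin, is a type II classical cadherin of the early nephron. The arrays read 7.93, 8.30 and 7.97 at P0, 8.03, 7.85 and 8.53 at P1, 8.67, 8.88 and 8.65 at P2, 9.51, 9.94 and 9.45 at P3, and 10.20, 10.59 and 10.36 at P4. From P2 on, the arrays of each day lay above all arrays of the days before. The slope over P0 to P3 was 0.53 per day (SE 0.06, adjusted p = 2.3e-04), with 0.54 on the first replicates and 0.53 within replicates 2 and 3. Cdh6 at P4 was 1.74 (SE 0.15) above the cap mesenchyme mean, 3.34-fold, with an adjusted p of 4.0e-06. The last step from P3 was 0.75 (SE 0.19, adjusted p = 0.0746), and it was called when the array set was blocked (0.0189).

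Fat3, a large cadherin of the Fat group, went the other way over the same days. Its values were 10.30, 10.89 and 10.86 at P0, 9.90, 10.72 and 10.33 at P1, 8.93, 9.61 and 9.82 at P2, 7.87, 8.81 and 8.90 at P3, and 7.75, 8.20 and 7.61 at P4. The first replicate was the lowest array on each day up to P3, and the P4 arrays overlapped those of P3, with 2 of 3 below every earlier array. The slope was -0.73 per day (SE 0.10, adjusted p = 9.4e-04), and Fat3 at P4 was -1.89 (SE 0.24) from the cap mesenchyme mean, 3.71-fold lower (adjusted p = 1.6e-04). From P3 to P4 the difference was -0.68 (SE 0.31, adjusted p = 0.630), called when the array set was blocked (0.0448), but only -0.13 on the first replicates.

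Fat3 was also the only member with many probe sets, 15 in all. In all 15 the P4 mean was below the P0 mean, by differences of -2.83 to -1.02 with a median of -1.98. The one used here had the largest difference, and 14 of the 15 passed the filter level in at least 3 arrays. These probe sets were read from the same RNA and are not replicates.

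**Figure D2:**
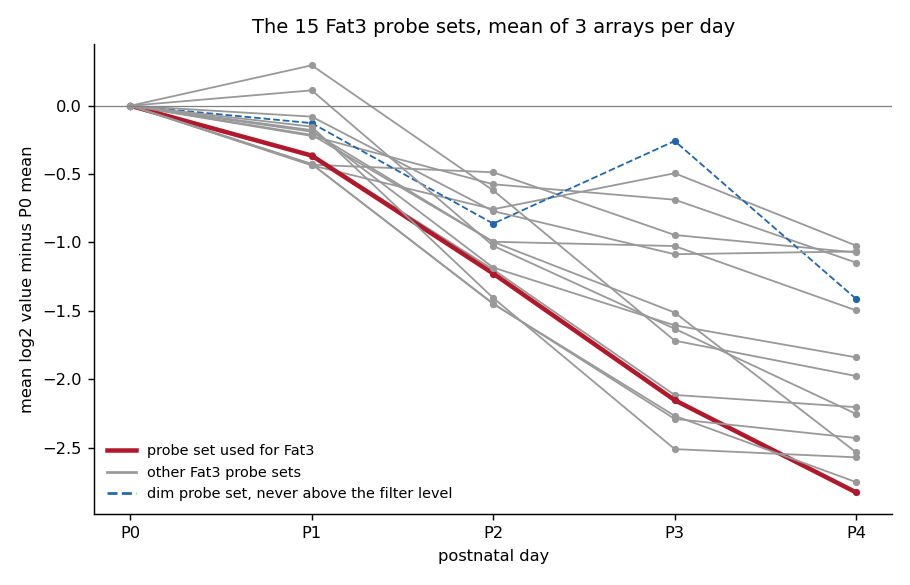
Mean log2 value of each day minus the P0 mean (vertical) by postnatal day (horizontal) for the 15 Fat3 probe sets, 1 line each, over 3 arrays a day. All 15 end between -2.83 and -1.02 at P4, and the thick line is the probe set that stands for Fat3.

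Among the protocadherins, Pcdh7 rose before P4 and Pcdh19 reached its highest level at P3. Pcdh7 read 6.66, 6.78 and 6.84 at P0, 6.98, 6.89 and 6.89 at P1, 6.92, 6.68 and 7.15 at P2, 7.66, 8.05 and 7.5 at P3, and 8.12, 8.55 and 8.48 at P4. It lay near the filter level up to P2, then above it in every array, and all 3 P4 arrays exceeded all earlier ones. Its slope was 0.29 per day (SE 0.05, adjusted p = 0.00639), and the P4 difference was 1.30 (SE 0.13, 2.46-fold, adjusted p = 1.6e-05). The step from P3 to P4 was 0.65 (SE 0.16, adjusted p = 0.0765), called when the array set was blocked (0.0252).

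Pcdh19 is a protocadherin of the delta-2 group that can act together with N-cadherin. It read 6.19, 6.31 and 6.42 at P0, 6.21, 6.17 and 6.27 at P1, 6.31, 6.67 and 6.41 at P2, 7.76, 7.44 and 7.58 at P3, and 7.49, 7.26 and 7.26 at P4. It passed the filter level only in the 6 arrays of P3 and P4, in which it is high, and all 9 earlier arrays lay below that level. Its differences from the earlier days are therefore set against values not above the filter level, no fold is given, and a gene that enters the test in this way had to differ. Between P2 and P3 the difference was 1.13 (SE 0.13, adjusted p = 0.00493, and 0.00697 with all genes and no filter). No other member was called in a step between neighbouring days before P4, and 0.143% of all genes were called for this step. From P3 to P4 the difference was -0.25 (SE 0.13, adjusted p = 0.740). Its slope was 0.41 per day (SE 0.04, adjusted p = 1.0e-04, and 1.4e-04 with no filter) and its P4 difference from the cap mesenchyme mean 0.69 (SE 0.10, adjusted p = 5.2e-04).

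In limma no member was called between P0 and P1, where no gene at all was called (0%) and 0 of the 19 members had an unadjusted p under 0.05. None was called between P1 and P2 either (0.0841% of all genes), where Cdh6 and Fat3 had an unadjusted p under 0.05. When the array set was blocked, Fat3 was called between P1 and P2 (-0.86, adjusted p = 0.0271), and Cdh6 (0.90, 0.0122), Pcdh7 (0.82, 0.0119) and Fat3 (-0.93, 0.0126) joined Pcdh19 between P2 and P3. The shares of all genes called in that model were 0.867% and 1.23%.

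Pcdh17 rose least of the called members. It read 7.10, 6.94 and 7.20 at P0, 7.32, 7.08 and 7.19 at P1, 7.15, 7.16 and 7.30 at P2, 7.30, 7.36 and 7.58 at P3, and 7.72, 7.70 and 7.98 at P4. The P4 arrays were above the others by a small margin. The difference was 0.58 (SE 0.10, 1.49-fold, adjusted p = 0.00195), and neither its slope (0.10 per day, adjusted p = 0.273) nor its step from P3 (0.39, adjusted p = 0.251) passed, though the step passed with the replicate number as a block (0.0451).

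The timetables can be put on one scale as the share of the P0 to P4 difference that was already present at P3. From the day means it was 10.9% for Cdh1, 16.7% for Cdh3, 16.8% for Cdh16 and 24.5% for Cdh11. It was 46.2% for Pcdh17, 60.1% for Pcdh7, 67.6% for Cdh6, 76.1% for Fat3 and 125% for Pcdh19, whose P3 level exceeded that of P4 and whose P0 level lay below the filter level. Taken within each replicate number, the share was 62.0% to 71.6% for Cdh6 and -11.4% to 24.4% for Cdh1. These shares are a description with no test, and those of neighbours such as Cdh1, Cdh3 and Cdh16 overlapped from replicate to replicate.

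**Figure D3:**
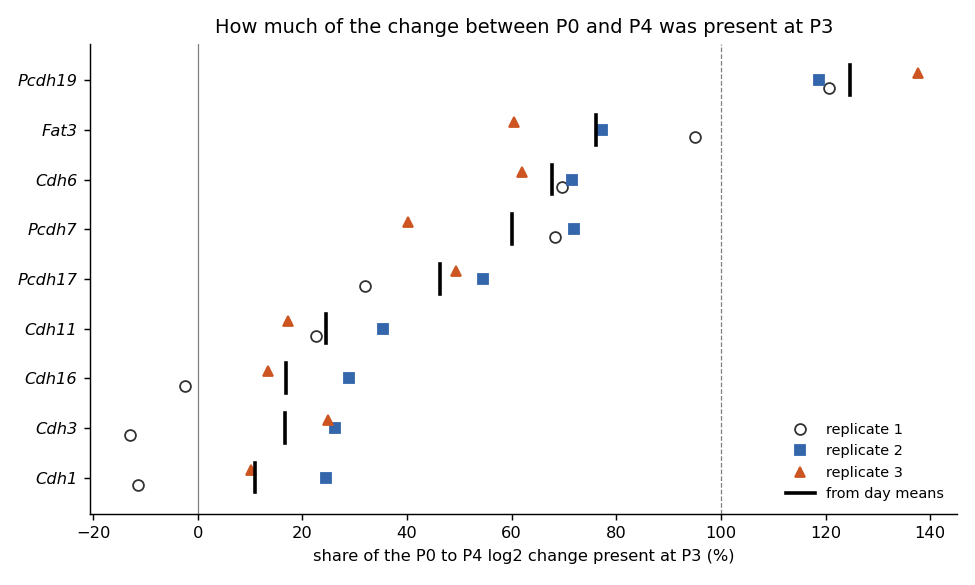
Share of the P0 to P4 log2 change that was present at P3 (horizontal, in %) for the 9 called members (vertical). Symbols are the 3 replicate numbers and bars the value from day means, which run from 10.9% for Cdh1 to 125% for Pcdh19.

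Promoter sequence was looked at for the members with a called slope before P4, of which 3 rose and Fat3 fell. RefSeq windows (GRCm38.p6) were matched for 11 of the 19 tested members by symbol. The 250 bases before the start of these 4 genes are shown 5′ to 3′, to set the early movers side by side, with matches in capitals to 2 motifs searched on both strands. The motifs were CAGGTG, the E-box that Snail and Zeb repressors bind (17.2% of 32851 windows of this length held it), and CTTTGA, the core of Lef and Tcf sites (13.8%). They lie at chr15:13173676-13173925 on the minus strand for Cdh6, chr9:16502055-16502304 on the minus strand for Fat3, chr5:57717831-57718080 on the plus strand for Pcdh7 and chrX:133688994-133689243 on the minus strand for Pcdh19.
Cdh6: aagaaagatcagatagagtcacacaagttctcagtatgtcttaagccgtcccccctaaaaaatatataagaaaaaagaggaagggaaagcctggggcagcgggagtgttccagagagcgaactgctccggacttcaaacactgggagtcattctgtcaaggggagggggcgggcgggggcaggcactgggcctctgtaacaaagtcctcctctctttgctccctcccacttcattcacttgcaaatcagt
Fat3: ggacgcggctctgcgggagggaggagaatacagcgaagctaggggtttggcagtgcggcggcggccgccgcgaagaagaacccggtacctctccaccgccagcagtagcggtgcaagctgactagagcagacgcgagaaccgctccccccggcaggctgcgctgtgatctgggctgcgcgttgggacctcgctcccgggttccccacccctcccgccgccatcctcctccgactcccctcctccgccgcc
Pcdh7: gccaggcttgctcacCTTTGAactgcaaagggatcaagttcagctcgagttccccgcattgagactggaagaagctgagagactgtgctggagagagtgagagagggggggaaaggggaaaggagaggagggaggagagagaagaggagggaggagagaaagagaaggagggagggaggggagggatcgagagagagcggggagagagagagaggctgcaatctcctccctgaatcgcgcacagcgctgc
Pcdh19: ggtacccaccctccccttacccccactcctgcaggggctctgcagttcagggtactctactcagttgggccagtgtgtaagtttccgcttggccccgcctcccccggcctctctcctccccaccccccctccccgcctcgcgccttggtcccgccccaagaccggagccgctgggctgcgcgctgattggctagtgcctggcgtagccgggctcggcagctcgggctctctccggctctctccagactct
The single match was in Pcdh7, a Lef/Tcf core that begins 235 bases before the start. Base composition differed among the 4, with a GC share of 51.2% in Cdh6, 58.4% in Pcdh7, 69.2% in Pcdh19 and 70.4% in Fat3, beside a mean of 53.2% over all windows. Of the 11 windows, 2 held the E-box (those of Celsr2 and Fat1), where 17.2% of all windows held it. No window was matched for Cdh1, Cdh3, Cdh11 or Cdh16, so these called members were not searched for either motif. A match is a description of the letters and no evidence of a binding site.

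The remaining classical cadherins moved less. Cdh2 read 9.16, 9.73 and 9.75 at P0, 9.0, 9.61 and 9.60 at P1, 9.01, 9.73 and 9.53 at P2, 9.12, 9.42 and 9.20 at P3, and 8.56, 9.10 and 8.91 at P4. The P4 arrays overlapped the first replicates of the earlier days. Its P4 difference was -0.55 (SE 0.18, adjusted p = 0.110). Once the array set was blocked (adjusted p = 6.8e-04), within replicates 2 and 3 (-0.57, 0.0121) and without P2 replicate 1 (0.0488) it was called lower.

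Cdh4, the gene of R-cadherin, read 7.97, 8.50 and 8.52 at P0, 7.91, 8.37 and 8.50 at P1, 8.06, 8.74 and 8.68 at P2, 8.35, 9.15 and 9.38 at P3, and 8.46, 9.0 and 8.88 at P4. The first replicate was the lowest array on every day and P3 the day with the highest mean. Its slope over P0 to P3 was 0.21 per day (SE 0.09, adjusted p = 0.296), called when the array set was blocked (0.00114) and within replicates 2 and 3 (0.26, 0.00840). Its P4 difference was 0.27 (95% confidence interval -0.19 to 0.73).

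Among the other type II cadherins, Cdh5, the VE-cadherin gene of endothelium, read 5.97 to 6.62 in all 15 arrays, below the filter level. All 7 endothelial markers listed beside it were below that level too. Of these, Tek, named after its value was seen, had day means of 5.31 to 5.42 before P4 and 5.77 at P4. With all genes and no filter its limma adjusted p was 0.0143, and that of the other endothelial markers 0.862 or more. Cdh22 and Cdh24 were tested and their P4 differences were -0.11 (adjusted p = 0.848) and 0.21 (adjusted p = 0.415).

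**Figure D4:**
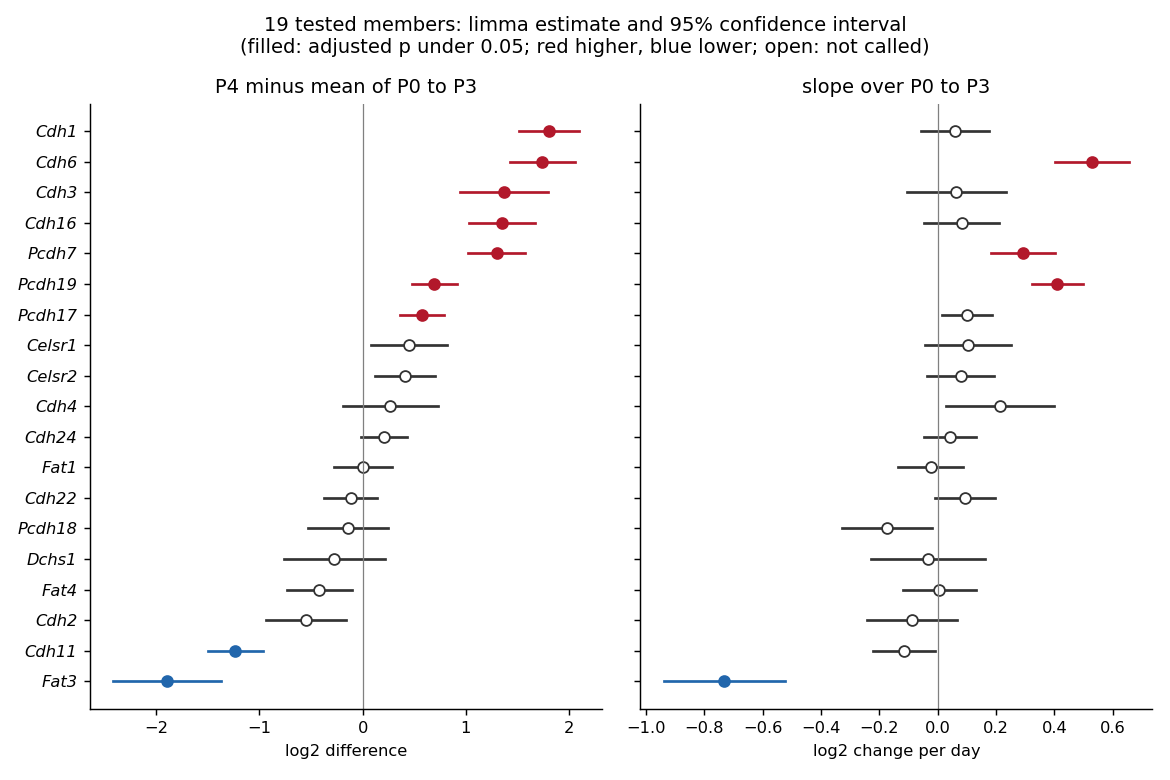
limma estimates with 95% confidence intervals for the 19 tested members, ordered by the P4 difference. The left panel is P4 minus the mean of P0 to P3 (log2), from -1.89 for Fat3 to 1.80 for Cdh1, and the right panel the slope over P0 to P3 (log2 per day), from -0.73 for Fat3 to 0.53 for Cdh6; filled points have an adjusted p under 0.05.

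Apart from Fat3, the Fat and Dachsous members were not called in any comparison of the model without a block. Fat1 read 9.15, 9.50 and 9.28 at P0, 9.26, 9.51 and 9.59 at P1, 8.90, 9.26 and 9.37 at P2, 9.13, 9.51 and 9.33 at P3, and 9.24, 9.56 and 9.16 at P4. Its P4 values lay within those of the earlier days, and the difference was 0.00 with a 95% confidence interval of -0.27 to 0.28.

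Fat4 is the receptor for Dachsous proteins and is known from the kidney for signalling between stroma and nephron progenitors. Fat4 read 8.49, 8.80 and 8.75 at P0, 8.58, 8.70 and 8.94 at P1, 8.19, 8.53 and 8.70 at P2, 8.69, 9.18 and 8.49 at P3, and 8.29, 8.37 and 8.10 at P4. The P4 arrays were low but overlapped P2. The difference was -0.42 (SE 0.14, adjusted p = 0.135), and when the array set was blocked it was called lower (0.0401).

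Dchs1, the ligand partner of Fat4, read 7.59, 8.27 and 8.38 at P0, 7.75, 8.22 and 8.59 at P1, 7.81, 8.44 and 8.31 at P2, 7.49, 8.23 and 8.18 at P3, and 7.38, 8.18 and 7.94 at P4. The days overlapped throughout, and the P4 difference was -0.27 (95% confidence interval -0.76 to 0.22). Fat2 stayed below the filter level.

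Celsr1, a Flamingo-type cadherin of the planar polarity complex, read 7.16, 7.28 and 7.52 at P0, 7.23, 7.5 and 7.55 at P1, 7.20, 7.86 and 7.55 at P2, 7.25, 7.94 and 7.69 at P3, and 7.54, 8.21 and 8.03 at P4. The highest array of each replicate number was that of P4. Its difference was 0.45 (SE 0.17, adjusted p = 0.191) and that of Celsr2 0.41 (SE 0.14, adjusted p = 0.110). Both were called higher when the array set was blocked (0.00594 and 0.00127) and within replicates 2 and 3 (0.0425 and 0.0311). In the array set model 13 of the 19 members were called at P4, the 9 above with Cdh2, Fat4, Celsr1 and Celsr2, where 11.5% of all genes were called.

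Pcdh18 was the remaining protocadherin tested. It read 7.74 to 8.96 before P4 and 7.99 to 8.39 at P4, with a difference of -0.14 (SE 0.18, adjusted p = 0.887). The other 23 members, among them Cdh7 to Cdh10, Cdh12, Cdh13, Cdh17 and Celsr3, did not pass the filter. Their day means lay between 3.61 and 6.76 and moved by at most 0.48 over the 5 days, with a median of 0.16. Without the filter none of them had an adjusted p under 0.05 in limma in any comparison. Pcdh8, which moved the most, was the one with an unadjusted p under 0.05 at P4 and the one whose 3 P4 arrays (6.62, 6.61 and 6.96) lay above all others.

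The exchange between members can be read within each array as the level of one member minus that of another, taken as the change from the mean of the 12 cap mesenchyme arrays. Only the change is used, since probe sets of different genes share no scale. For Cdh6 against Cdh11 the day means were -0.69 ± 0.17 (SD, n = 3) at P0, -0.64 ± 0.28 at P1, 0.12 ± 0.06 at P2, 1.21 ± 0.32 at P3 and 2.98 ± 0.46 at P4. This pair shifted from P2 on and had moved clear of the P0 and P1 arrays by then. For Cdh1 against Cdh11 the day means were -0.12 ± 0.23, -0.23 ± 0.07, -0.06 ± 0.23, 0.41 ± 0.20 and 3.04 ± 0.71, so that most of the shift fell in the last day.

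Against Cdh2, Cdh6 had shifted by 1.15 ± 0.13 at P3 and 2.29 ± 0.10 at P4, and Cdh1 by 0.35 ± 0.04 and 2.35 ± 0.20. In these 4 pairs and in Fat1 against Fat4 (0.42 ± 0.12 at P4) all 3 P4 arrays lay above all others. For Cdh6 and Cdh1 against Cdh11 this was fixed in advance, since each of these members had no overlap by itself. The groups overlapped for Cdh4 against Cdh11 (1.5 ± 0.60), Cdh2 against Cdh11 (0.68 ± 0.56), Dchs1 against Fat4 (0.14 ± 0.42) and Celsr1 against Celsr2 (0.04 ± 0.18). The 9 pairs are descriptions with no test, and the share without overlap over other gene pairs was not computed.

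**Figure D5:**
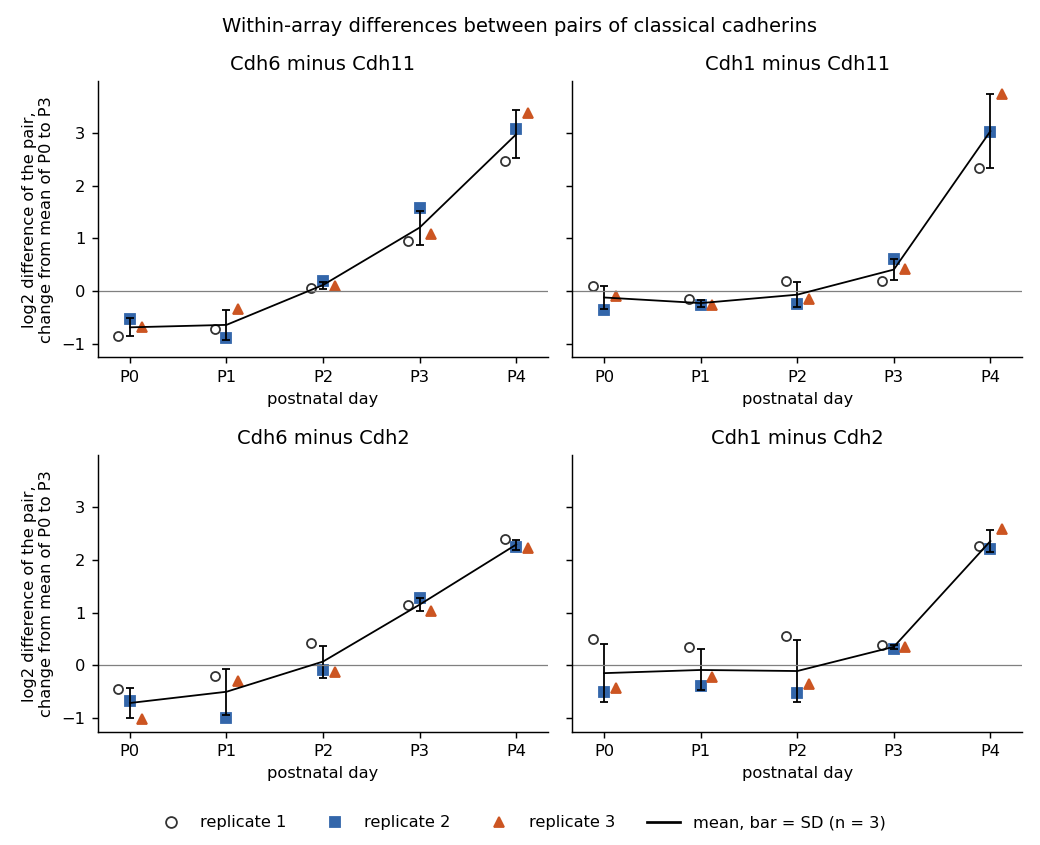
Log2 level of one cadherin minus that of another within each array, as the change from the mean of the P0 to P3 arrays (vertical), by postnatal day (horizontal), for 4 pairs. Symbols are replicate numbers and lines join day means with SD bars; both pairs with Cdh6 climb from P2, while both with Cdh1 stay within 0.61 of zero up to P3 and reach 2.35 to 3.04 at P4.

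Proteins that work with cadherins were followed as lists. Beside the counts of these and the marker lists below stand the shares of all genes called at P4, 3.41% higher and 2.32% lower. Of 11 tested catenin and junction plaque genes none was called at P4 in limma, and 2 had an unadjusted p under 0.05. These were Ctnna1, the alpha-catenin that links cadherins to actin (0.40, adjusted p = 0.0764), and Pkp2, a desmosomal plaque protein (0.41, adjusted p = 0.0729), and when the array set was blocked, both were called higher (0.00805 and 0.0322). Ctnnb1, the beta-catenin gene, differed by 0.12 (adjusted p = 0.776), which is named beyond the rule and was chosen after its value was seen. None of the 5 nectin genes was called, with or without the block, and 0 had an unadjusted p under 0.05; the smallest p were those of Nectin3 (-0.26, adjusted p = 0.545) and Nectin4 (0.21, 0.548). The 4 desmosomal cadherins measured were below the filter level in all arrays and were not tested with it. With all genes and no filter, Dsg2, named after its value was seen, was called higher at P4 in limma (adjusted p = 0.0255). Its day means were 5.64 to 6.05 before P4 and 6.52 at P4. The other desmosomal cadherins had an adjusted p of 0.398 or more in that fit.

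Of 3 proteases that process cadherins, Adam10, the sheddase that cuts E-cadherin and N-cadherin, was called lower at P4. It lay 0.65 below the cap mesenchyme mean (SE 0.15, limma adjusted p = 0.0184). Its day means were 9.97, 9.86, 9.72, 9.10 and 9.01 from P0 to P4, so most of the fall was present at P3. It also had a slope of -0.28 per day (adjusted p = 0.0237). The P4 call was lost without P4 replicate 1 or P4 replicate 3 and within replicates 2 and 3 (0.109). The slope was lost without any one of the P0 arrays or P3 replicate 3, and within replicates 2 and 3 (-0.30, 0.0646).

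Of 16 tested planar polarity genes 2 rose at P4. Fjx1, the homologue of the kinase that modifies Fat and Dachsous in flies, rose by 1.04 (SE 0.23, 2.06-fold, adjusted p = 0.0129), and Fzd6, a Frizzled receptor, by 0.48 (SE 0.11, adjusted p = 0.0210). The Fjx1 call was lost without P4 replicate 2 or P4 replicate 3. That of Fzd6 was lost without any one of the P4 arrays and within replicates 2 and 3 (0.109). Over P0 to P3 Fjx1 had a slope of 0.32 per day (limma adjusted p = 0.0861), called within replicates 2 and 3 (0.30, 0.00667). The other 14, with Vangl1, Vangl2 and the Dvl genes among them, were not called, although Lix1l, named after its value was seen, was called lower when the array set was blocked (-0.76, 4.9e-04).

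Of 10 tested regulators of cadherin genes 2 fell at P4. Zeb1, a repressor of Cdh1, fell by 1.05 (SE 0.20, 2.07-fold, adjusted p = 0.00540), with day means of 9.81, 9.61, 9.36, 8.63 and 8.31 from P0 to P4. Its slope before P4 was -0.38 per day (adjusted p = 0.0215), a call lost without P0 replicate 2, P0 replicate 3, P3 replicate 1 or P3 replicate 3. Snai2, another such repressor, fell by 0.57 (SE 0.12, adjusted p = 0.0110) and had its highest day mean, 9.39, at P3. That call was lost without P4 replicate 2 or P4 replicate 3.

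When the array set was blocked, Tcf4 was also called lower (-0.49, 0.00690). Grhl1 rose before P4 (0.28 per day, adjusted p = 0.00158). Grhl2, an activator of Cdh1, passed the filter level in only 2 arrays and was not tested with the filter. It is named after its values were seen. With all genes and no filter its limma adjusted p at P4 was 6.2e-05. It read 5.60 to 6.01 in the 12 cap mesenchyme arrays and 6.69, 7.42 and 7.14 at P4, above all others.

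Markers of other cells that carry these cadherins were read beside them. Cdh1 and Cdh16 are also known from ureteric bud and collecting duct. Of 7 markers of those cells 1 rose at P4 of 4 tested, Gata3 (1.88, adjusted p = 3.9e-06). Its day means were 6.12 to 6.22 from P0 to P3 and 8.04 at P4, so that it passed the filter only through the P4 arrays (adjusted p = 5.6e-06 with all genes and no filter). The tip genes Ret and Wnt11 were below the filter level in all 15 arrays. The mean level of the list was 6.55 to 7.10 in the cap mesenchyme arrays and 7.01 to 7.27 at P4. Of 2 tested tubule markers 1 rose (Lrp2, 0.65, adjusted p = 7.9e-04), as did the podocyte marker Podxl (0.61, adjusted p = 0.0170). Their part in the rise of Cdh1, Cdh3 and Cdh16 was not tested.

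Cdh11 and Fat4 are also expressed in stroma. Of 7 tested stromal markers 2 were lower at P4 than the cap mesenchyme mean. These were Foxd1 (-0.74, adjusted p = 0.00506) and Meis1 (-0.78, adjusted p = 0.00273). A falling slope over P0 to P3 was called for 3 (Foxd1, Pdgfra and Postn). The Foxd1 drop was complete by P3, with day means of 9.72, 9.76, 9.13, 8.32 and 8.49 from P0 to P4. Those of Meis1 were 9.24, 9.02, 8.73, 8.66 and 8.13. The mean level of the stromal list was 7.14 to 8.0 before P4 and 7.34 to 7.47 at P4. The part of the stromal list in the Cdh11 and Fat4 values was not tested. No marker of macrophages, or of Schwann and neural cells was called at P4 against the cap mesenchyme mean in limma, with 1 tested in each list and 0 at an unadjusted p under 0.05. Over P0 to P3 the macrophage gene Cd68 had a slope of -0.27 per day (adjusted p = 0.0518).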

How the data were processed

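Sorted cells of 15 pools were profiled on Affymetrix Mouse Gene 1.0 ST class arrays after 1 round of amplification. The authors deposited log2 values for 35557 probe sets. The submitters' processing notes name Affymetrix Expression Console. How values were summarised, background-corrected or centred is not stated. The deposited log2 values were used as they are, with array medians of 6.80 to 6.92. The number of arrays limits precision. Folds of dim genes may be understated.

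Of the probe sets, 21789 had one symbol in the platform table, which gave 19938 genes. The 3 probe sets that list Cdh11 with other genes were left out. Genes above log2 6.86 in at least 3 arrays (11885) were tested with limma 3.58.1 in R 4.3.3 (lmFit and eBayes, a mean for each day, two-sided, Benjamini-Hochberg over all genes tested, threshold 0.05). The method was tested on simulated data. Figures were drawn with matplotlib 3.10.9.

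Members and lists were chosen with earlier results of these data known. Every member could be named. Those called, with Cdh1 to Cdh6, Cdh11, Cdh16, Fat1, Fat4, Dchs1 and Celsr1, are given by array, and for other lists up to 6 called genes or the 2 with the smallest p. No 2 arrays held identical values. Deviations of same-numbered arrays from their day means had a correlation over 0.1 in 18 of 18 pairs among P0 to P3. The same held in 3 of 3 between P3 and P4, and in 29 of 30 over all days (lowest 0.0782). The shift shared by the first replicates enters every deviation of a day through the day mean. These correlations therefore cannot tell whether the numbers 2 and 3 pair the days. The first replicate of each day carries no number in its title and was taken as 1. Alternatives were quantile normalization, no filter, a stricter filter (12 arrays), the array set or the replicate number as a block, replicates 2 and 3 alone, the mean of a gene's probe sets, array weights, and leaving out each array.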

Additional observations from a re-analysis of the deposited data

How the results depend on the processing

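The count of 9 members called at P4 against the cap mesenchyme and the F test count of 9 stayed within 1.5 times under every alternative run, and leaving out each array in turn gave 9 to 10 and 7 to 9. For P4 against P3 the count of 4 became 7 with the array set as a block and 8 with the replicate number as a block (3 to 5 when an array was left out). The slope count of 4 became 2 under the stricter filter, which Pcdh7 and Pcdh19 do not pass. The count of 3 against the line ranged from 1 to 4 when an array was left out, with 1 without P3 replicate 1. The count of 1 over neighbouring days before P4 became 3 with quantile normalization, 0 with the stricter filter, 5 with either block and 7 with array weights. Apart from the stricter filter, where Pcdh7 and Pcdh19 were not tested, the cause was not tested. The replicate block otherwise made the calls of the array set block, with Pcdh17 from P3 to P4 in addition.

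Of single members, Fat1, Fat4, Dchs1 and Cdh4, all uncalled, changed sign in small values. For Fat1 the P4 difference was -0.057 within replicates 2 and 3 and -0.056 with array weights, the step from P3 0.040 with quantile normalization and the slope 0.010 with array weights, and the Fat4 slope was -0.0016 within replicates 2 and 3. When an array was left out, the Fat1 values ranged from -0.12 to 0.083 (P4 difference), -0.13 to 0.090 (step from P3) and -0.053 to 0.0050 (slope), the Fat4 slope from -0.054 to 0.050, the Dchs1 step from P3 from -0.37 to 0.090 and its slope from -0.11 to 0.038, and the Cdh4 step from P3 from -0.48 to 0.030. The P4 calls of the 9 members and the 4 slope calls were kept in every fit that left out an array. The number of arrays, 3 a day, and values near the filter level limit what can be read from members such as Cdh16, Pcdh7 and Pcdh19.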
